A study of Mus musculus with 24 samples.

Results

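The comparison set 6 tumour libraries of the group labelled GEM against 6 of the PBS control group, 12 of the 24 mouse libraries in the series. PBS is phosphate-buffered saline, a vehicle without drug. The members were taken by the group named in each sample title, all from day 24, and every gene with enough reads was tested, 19253 of the 54532 genes in the count table. The remaining 12 libraries, 6 labelled IGEL and 6 labelled LIGEL, entered the fit to steady the estimate of spread between libraries. They also entered the filter on low counts and the scaling. With the 12 GEM and PBS libraries alone, 17943 genes were tested. The series title speaks of losartan priming followed by a nanocarrier that joins chemotherapy with immunotherapy, but the labels expand none of the group names, so no drug is assigned to GEM here. Strain, age, sex, dose and the origin of the tumours are not stated in the sources used here. Nothing in the labels ties the 6 libraries of a group to separate animals. The p-values below therefore describe the variation among libraries, part of which may be technical.

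Each library is written below by its group and replicate number, so PBS 5 is replicate 5 of the PBS group. Total counts ran from 27.1 M to 35.8 M reads, with 33.7 ± 1.42 M in GEM and 33.6 ± 3.25 M in PBS (SD, n = 6 each). The titles call the tissue muscle while the tissue label says pancreatic tumour. Genes of skeletal muscle took at most 0.00453% of the counts in any of the 12 libraries, whereas digestive enzyme genes of pancreatic acinar cells took up to 45.4%. That highest acinar share belonged to PBS 5, followed by GEM 6 with 19.3%, and the other 10 libraries lay between 0.00659% and 6.8% (Wilson 95% intervals at most 0.0375 percentage points wide, counting error only). PBS 5 also had the lowest total and the lowest composition factor, 0.548. Results are therefore given with and without PBS 5. GEM 1, GEM 2 and GEM 3 come from count columns numbered A1 or A2, numbers that no PBS library shares, so a difference tied to that numbering and a GEM difference cannot be told apart within these 3. GEM 2 and GEM 3 share the number A2, and GEM 1 shares A1 with an IGEL library. What a shared number stands for is not given, so GEM 2 and GEM 3 may not be separate tumours.

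Chemotherapy acts most on dividing cells. Nucleoside analogues, a drug class long used against pancreatic cancer, enter cells through nucleoside transporters, are phosphorylated by kinases such as deoxycytidine kinase, and then block DNA synthesis and ribonucleotide reductase. Cells with stalled replication can arrest through checkpoint kinases and p53, stop entering mitosis, or die, and tumours given such drugs can differ in immune and stromal content too. The gene groups below follow that order, from the cell cycle and nucleoside handling to damage response, oxygen and interferon programmes, immune cells and stroma.

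No gene of the 19253 passed an adjusted p under 0.05 in GEM against PBS by edgeR's quasi-likelihood test with Benjamini-Hochberg adjustment (0%), and the smallest adjusted p was 0.804. DESeq2 on the same genes also called 0. At an unadjusted p under 0.05 edgeR counted 926 genes, 4.81% of those tested, of which 370 were higher in GEM (1.92%) and 556 lower (2.89%). The direction of that count moved with the scaling: library totals without a composition factor gave 327 higher and 138 lower, and RLE factors gave 280 higher and 745 lower. Without PBS 5, 19525 genes were tested and again 0 were called, with a smallest adjusted p of 0.597 and 1015 genes at an unadjusted p under 0.05 (5.2%), 322 higher (1.65%) and 693 lower (3.55%). Limma voom with sample quality weights gave PBS 5 a weight of 0.0778 and PBS 1 a weight of 0.249, the lowest weights of all libraries. It called 66 genes with all libraries (0.343%), 6 higher (0.0312%) and 60 lower (0.312%). Without PBS 5 it called 335 (1.74%), 42 higher (0.218%) and 293 lower (1.52%). Counts of list members below are to be read against these shares.

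Genes of mitosis were lower in GEM for 27 of 27 members, against 53.5% of all genes tested, with a median log2 fold change of -0.44 beside -0.02 for all genes. With all libraries, 0 of the 27 reached an unadjusted p under 0.05, beside 2.89% of all genes for the lower direction. Without PBS 5, 27 of 27 were again lower, beside 53.2% of all genes, and 27 of 27 reached it, beside 3.55%, and the median was -0.69 with members between -0.86 and -0.50. None of the 27 passed the adjusted threshold in either edgeR fit, and voom called 7 with all libraries and 25 without PBS 5. In bulk tissue, fewer dividing cells and less of these transcripts per cell cannot be told apart.

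The mean log2 CPM (a gene's counts scaled to library size) of the 27 genes was 6.7 in PBS 1, 7.56 in PBS 2, 7.04 in PBS 3, 7.31 in PBS 4 and 6.86 in PBS 6, but 3.82 in PBS 5. In GEM it was 5.87, 6.31, 6.28, 7.05, 6.41 and 6.6 in replicates 1 to 6. Only GEM 4 lay above the lowest of the 5 other PBS libraries, while PBS 5 lay under every GEM library. The members shared one order of libraries: PBS 5 was the lowest and PBS 2 the highest of the 12 libraries for 27 of 27 genes, and within GEM the lowest was GEM 1 and the highest GEM 4 for 27 of 27. The 27 genes are therefore not 27 separate observations of the groups.

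**Figure D1:**
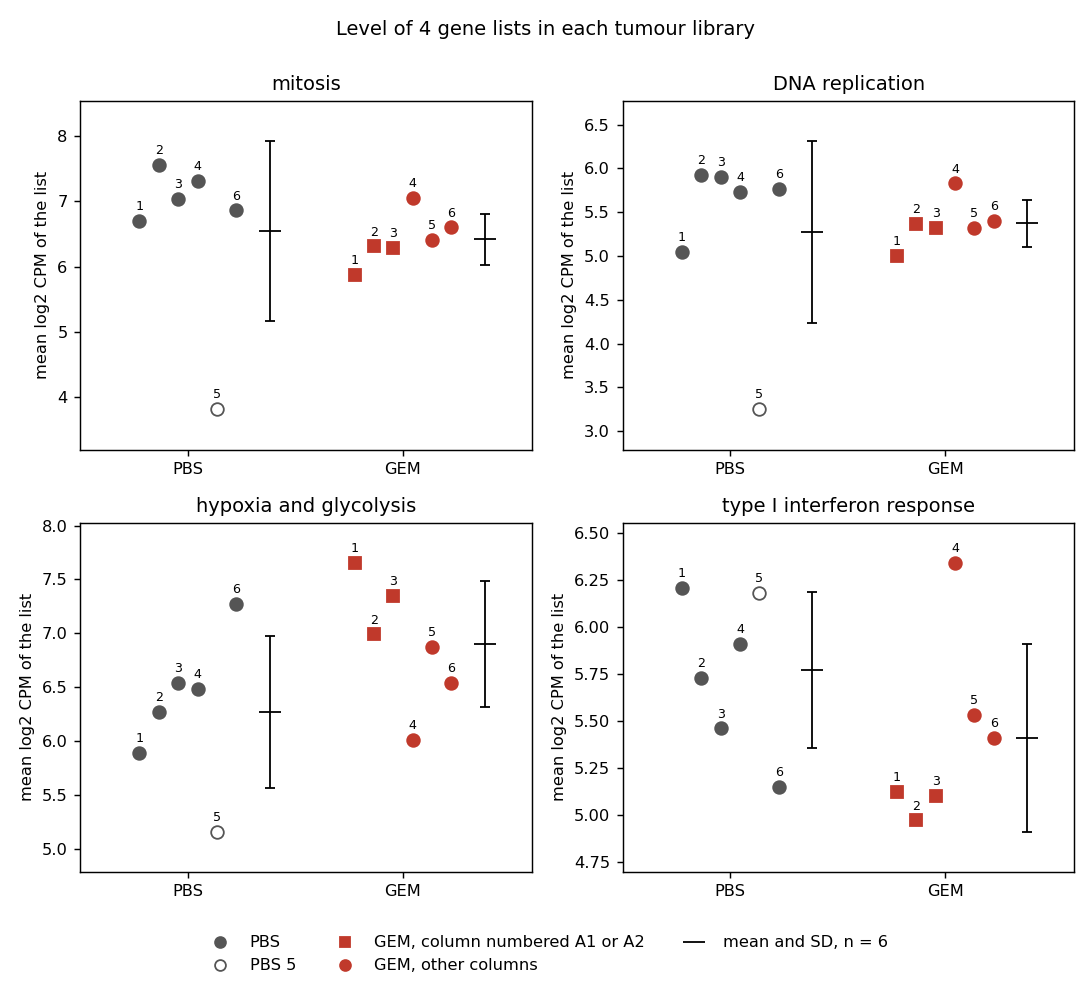
Mean log2 CPM of 4 gene lists in each library (y axis) for the PBS and GEM groups (x axis). Numbers are replicates, the open circle is PBS 5, squares are GEM libraries whose count columns are numbered A1 or A2, and bars give the mean and SD of the 6 libraries. PBS 5 lies lowest for mitosis (3.82) and DNA replication (3.25), and within GEM the 3 squares are the highest libraries for hypoxia and glycolysis and the lowest for type I interferon.

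Cdc20, which switches on the anaphase-promoting complex, measured 109, 284, 216, 269, 15.7 and 156 CPM in PBS 1 to 6 and 85.5, 101, 97.6, 180, 102 and 124 CPM in GEM 1 to 6. Apart from PBS 5, only GEM 4 and GEM 6 reached the PBS range. Its log2 fold change was -0.61 ± 0.38 (SE, adjusted p 0.804 by edgeR), and -0.86 ± 0.23 without PBS 5 (adjusted p 0.597). Kif18b and Kif20a, motor proteins of the spindle and of cytokinesis, differed by -0.54 ± 0.34 and -0.57 ± 0.36, and by -0.78 ± 0.21 and -0.82 ± 0.21 without PBS 5. Birc5, the chromosomal passenger protein survivin, ran from 10.7 over a median of 72.1 to 87.3 CPM in PBS and from 29.1 over 40.6 to 70.8 CPM in GEM. Mki67, the usual marker of cycling cells, showed the smallest difference of the 27, -0.26 ± 0.34 with all libraries and -0.50 ± 0.21 without PBS 5. Its CPM in PBS was 452, 689, 450, 512, 51.7 and 371, and in GEM 209, 348, 307, 537, 368 and 346. Cenpe, a kinetochore motor, was the only member whose groups did not overlap once PBS 5 was left out, with 84.4 to 145 CPM in GEM and 162 to 290 CPM in the 5 PBS libraries. Cenpe was picked out after its values were seen.

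**Figure D2:**
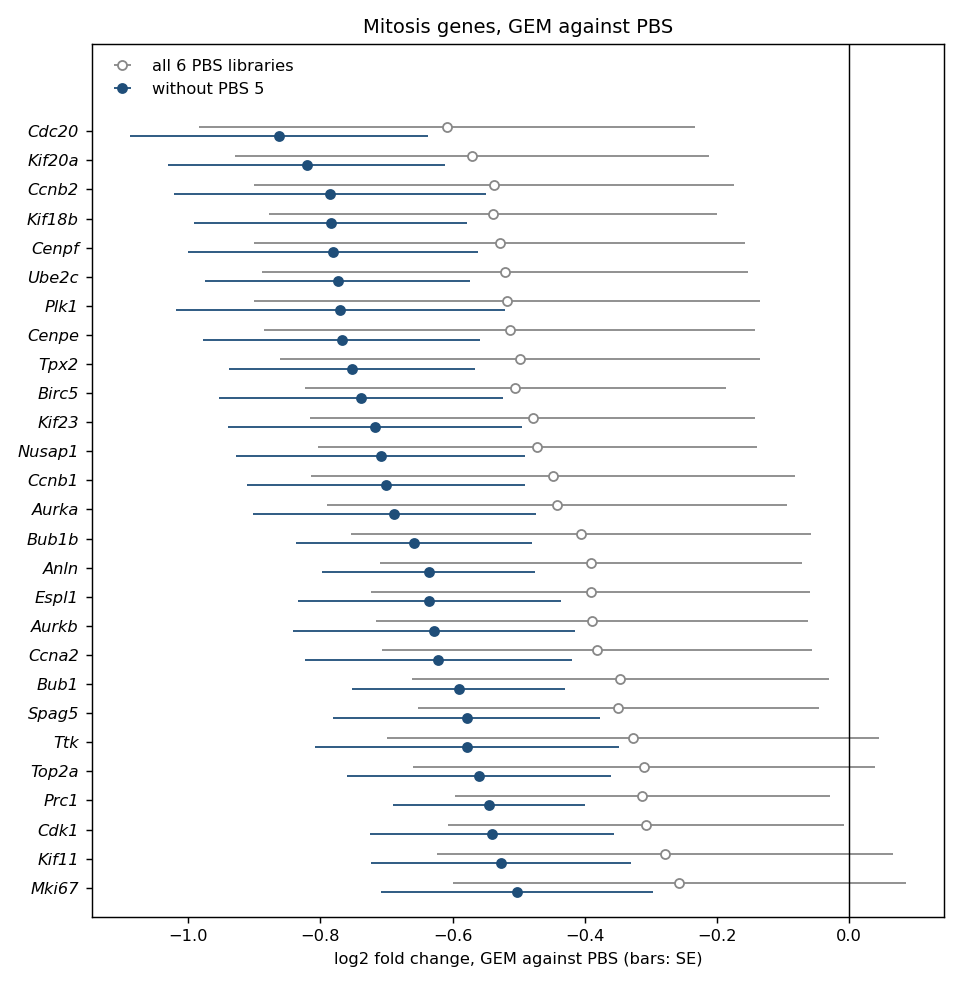
Log2 fold change of the 27 mitosis genes in GEM against PBS (x axis, bars are SE), one row a gene, with all PBS libraries (open circles) and without PBS 5 (filled circles). All points lie left of 0, and each filled circle lies further left with a shorter bar than the open one, from -0.86 for Cdc20 to -0.50 for Mki67.

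All 27 genes were lower in every setting tried except with a term for the A1 to A3 columns and all PBS libraries, where 2 of 27 were higher and the median was -0.19. Leaving out a further PBS or GEM library along with PBS 5, each in turn, kept 24 to 27 of the 27 genes at an unadjusted p under 0.05. With PBS 5 kept in, leaving out any other library gave 0 to 2. GEM 4, GEM 5 and GEM 6 against PBS without PBS 5, that is without the GEM libraries from the A1 and A2 columns, had a median of -0.44 and 14 of 27 at an unadjusted p under 0.05, beside 0.933% of all genes. With the acinar level of each library as a covariate and all libraries, the median was -0.43 with 0 of 27 at an unadjusted p under 0.05. With that covariate and PBS 5 left out, the median was -0.67 with 27 of 27. Summed CPM of the list was 453 in PBS 5, whose acinar share was 45.4%, and 3230 in GEM 6, whose acinar share was 19.3%. The part of the acinar share in the low values of PBS 5 was not tested beyond these fits.

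Promoters of mitosis genes are known for a short element, the cell cycle genes homology region, that sits close to the transcription start and downstream of CCAAT boxes, and through which these genes are silenced in resting cells. Promoters from RefSeq (GRCm38.p6, from 250 bases before to 50 after the start of transcription) were found for 23 of the 27 genes, 24 promoters in all. The letters TTTGAA, on either strand, were in 79.2% of the 24 beside 17.9% of all 32851 promoters, and CCAAT, on either strand, in 87.5% beside 37.4%. In DNA replication promoters the shares were 13.6% and 68.2%. The 120 bases before the start of 4 genes, which show how near the motifs lie to it, read as follows on the gene's strand, with both motifs or their reverse complements TTCAAA and ATTGG in capitals. Cdc20 spans chr4:118437344-118437463 (minus strand), Ube2c chr2:164769809-164769928 (plus strand), Cdk1 chr10:69352913-69353032 (minus strand) and Espl1 chr15:102296173-102296292 (plus strand).
Cdc20: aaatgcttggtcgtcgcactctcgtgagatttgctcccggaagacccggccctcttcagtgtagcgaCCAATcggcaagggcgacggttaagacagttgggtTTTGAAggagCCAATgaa
Ube2c: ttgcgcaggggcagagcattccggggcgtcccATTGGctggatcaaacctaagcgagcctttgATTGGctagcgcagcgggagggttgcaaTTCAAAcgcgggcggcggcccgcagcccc
Cdk1: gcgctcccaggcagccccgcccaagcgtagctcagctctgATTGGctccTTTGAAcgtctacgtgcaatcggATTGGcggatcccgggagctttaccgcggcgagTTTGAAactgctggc
Espl1: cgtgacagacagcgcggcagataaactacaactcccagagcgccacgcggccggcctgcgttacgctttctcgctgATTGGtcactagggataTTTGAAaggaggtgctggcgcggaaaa
A match is a description of the letters and shows no binding. The TTTGAA element nearest the start began 18 bases before it in Cdc20, 29 in Ube2c, 15 in Cdk1 and 27 in Espl1. Ube2c, the ubiquitin-conjugating enzyme that works with Cdc20, had a log2 fold change of -0.77 ± 0.20 without PBS 5. Cdk1, the kinase that starts mitosis, had -0.54 ± 0.18, and Espl1, the protease separase, -0.63 ± 0.20. These 3 genes were picked out for their promoters, after values were known.

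Genes of DNA replication depended on PBS 5 too. Of 26 members, 22 were lower with all libraries, 0 of them at an unadjusted p under 0.05, with a median of -0.11. The mean over libraries of the list's log2 CPM pointed the other way, 5.37 in GEM and 5.27 in PBS, with PBS 5 at 3.25 and the rest of PBS between 5.05 and 5.93. Without PBS 5, 26 of 26 were lower, 11 at an unadjusted p under 0.05, and the median was -0.34. Voom with all libraries had 20 of 26 lower at an unadjusted p under 0.05, beside 7.28% of all genes, with 0 called, and without PBS 5 it called 10. With the A1 to A3 columns left out and PBS 5 kept, 14 of 26 were lower with a median of -0.01. With those columns and PBS 5 left out, 25 of 26 were lower with a median of -0.20, and 0 were at an unadjusted p under 0.05. Orc1, a subunit of the origin recognition complex, differed by -0.29 ± 0.26 and by -0.49 ± 0.20 without PBS 5. Rfc5 of the clamp loader differed by -0.26 ± 0.26 and -0.47 ± 0.18, and Mcm10, which helps start the replication fork, by -0.32 ± 0.37 and -0.58 ± 0.24. Prim1, the primase subunit, had -0.36 ± 0.20 without PBS 5. With a term for the A1 to A3 columns and PBS 5 left out, 1 of 26 was at an unadjusted p under 0.05 in the lower direction, beside 2.22% of all genes, with a median of -0.19.

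Repair and checkpoint genes shared the low end of the mitosis order, with PBS 5 lowest for 21 of 24, while the highest library was PBS 2 for 11 and GEM 4 for 7. With all libraries 21 of 24 were lower with a median of -0.15, and 2 reached an unadjusted p under 0.05, both in the lower direction. One was Cdc25a, a phosphatase that activates cell cycle kinases, at -0.32 ± 0.14 (adjusted p 0.804 by edgeR). It ran from 29.4 over 45.0 to 58.3 CPM in GEM and from 48.5 over 54.7 to 67.8 CPM in PBS, and PBS 5 with 67.1 CPM was not low here. The other was Wee1, the kinase that holds back Cdk1, at -0.38 ± 0.18, with 20.9 over 27.3 to 38.2 CPM in GEM and 21.5 over 36.2 to 51.1 CPM in PBS. Both had overlapping groups. Without PBS 5, 24 of 24 were lower, 14 at an unadjusted p under 0.05 (background 3.55%), with a median of -0.31. Voom with all libraries had 20 of 24 lower at an unadjusted p under 0.05 with 0 called, and called 5 without PBS 5. With the A1 to A3 columns left out and PBS 5 kept, 13 of 24 were lower with a median of -0.02. With those columns and PBS 5 left out, 23 of 24 were lower with a median of -0.16. In that fit 1 was at an unadjusted p under 0.05, beside 0.933% of all genes. Xrcc6, the Ku70 subunit of the end-joining machinery, differed by -0.31 ± 0.10 and Fanci of the interstrand crosslink pathway by -0.64 ± 0.26 by edgeR without PBS 5. GEM 1 was the lowest GEM library for 20 of the 24 genes.

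Genes of nucleoside uptake, activation and breakdown showed no common direction: 17 of 25 tested members were lower, 8 higher, 0 at an unadjusted p under 0.05, and the median was -0.04. Slc29a1, the equilibrative transporter that carries nucleosides into cells, measured 69.7, 128, 159, 158, 40.9 and 112 CPM in PBS 1 to 6 and 76.7, 88.5, 92.3, 113, 114 and 93.3 CPM in GEM 1 to 6. GEM was narrow, and PBS lay on both sides of it, with PBS 1 and PBS 5 under every GEM library. The log2 fold change was -0.21 ± 0.21 with all libraries and -0.40 ± 0.15 without PBS 5 (adjusted p 0.837 by edgeR). With PBS 1 and PBS 5 both left out edgeR called it, at -0.55 ± 0.11 with an adjusted p of 0.0279. Voom called Slc29a1 with all libraries, at -0.55 with an adjusted p of 0.049, and without PBS 5, at -0.58 with an adjusted p of 0.00996. No other gene of the list was called in these fits except Tk1 by voom without PBS 5. Dck, the deoxycytidine kinase, had medians of 32.9 CPM in GEM and 33.8 CPM in PBS and a log2 fold change of -0.03 ± 0.28. Cda, the deaminase that inactivates cytidine analogues, had medians of 29.2 and 26.9 CPM and a log2 fold change of 0.24 ± 0.28, which was 0.01 ± 0.18 without PBS 5.

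The ribonucleotide reductase subunits shared the order of libraries of the mitosis genes, with PBS 5 lowest and PBS 2 highest of the 12, and GEM 1 lowest and GEM 4 highest within GEM. Rrm1 ran from 103 over 146 to 257 CPM in GEM and from 22 over 200 to 265 CPM in PBS, and Rrm2 from 63.4 over 113 to 231 CPM in GEM and from 18.3 over 152 to 252 CPM in PBS. Without PBS 5 the log2 fold changes were -0.42 ± 0.18 for Rrm1 (unadjusted p 0.0275, adjusted p 0.892 by edgeR) and -0.45 ± 0.29 for Rrm2. In both genes GEM 4 was the high outlier of its group. Tk1, the thymidine kinase of the salvage pathway, gave -0.36 ± 0.18 in the same edgeR fit, and -0.59 with an adjusted p of 0.0426 by voom. It was added after its values were seen. Of the 4 members with the smallest p in the list, 3 had PBS 5 as their highest library. Abcc10, an efflux pump, was 134 CPM in PBS 5 and 20.5 to 36.7 CPM in the other PBS libraries, beside 30.0 to 40.3 CPM in GEM, so that its log2 fold change of -0.49 ± 0.29 became 0.12 ± 0.13 without that library. Slc28a3, a concentrative nucleoside transporter, went from -1.39 ± 1.02 to 0.18 ± 0.94 in the same way. Nt5c3, a cytosolic nucleotidase, went from -0.26 ± 0.17 to -0.12 ± 0.15. Nt5e, the ectonucleotidase CD73, was the fourth and was higher in GEM, at 0.64 ± 0.46 and at 0.40 ± 0.42 without PBS 5, its lowest library.

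**Figure D3:**
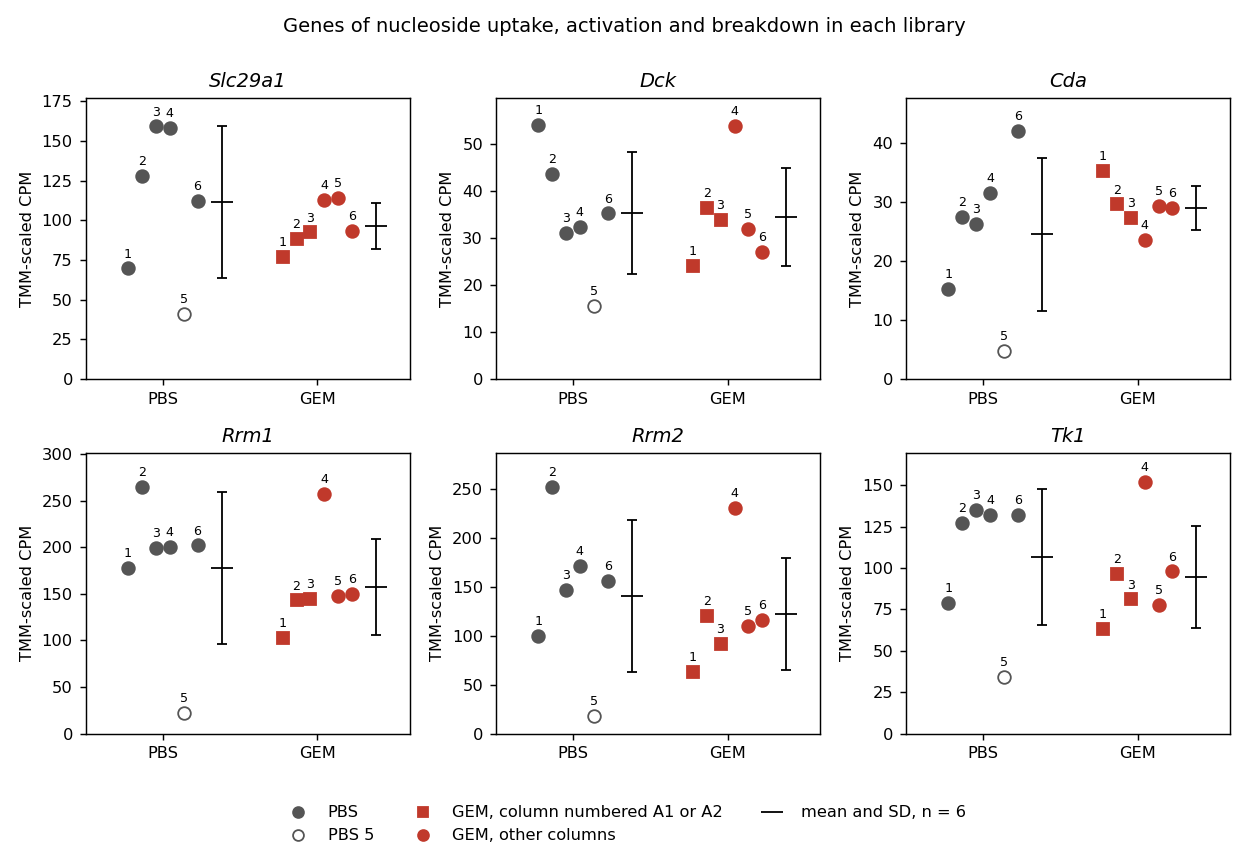
TMM-scaled CPM (y axis, from 0) of 6 genes of nucleoside handling in each library of PBS and GEM (x axis). Numbers, symbols and bars are as for the gene list levels. PBS 5 is lowest in all 6 panels, GEM 4 is the highest GEM library for Dck, Rrm1, Rrm2 and Tk1, and Slc29a1 in GEM lies between 76.7 and 114 CPM.

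Targets of p53 held no direction apart from PBS 1, which was the highest of the 12 libraries for 13 of 23 members. With all libraries 16 were lower and 7 higher, with a median of -0.22, and 18 were lower without PBS 5, 4 at an unadjusted p under 0.05, with a median of -0.25. Without PBS 1 the median was 0.06 with 12 higher, without PBS 1 and PBS 5 it was 0.02, and by voom with all libraries it was -0.03. The 1 member at an unadjusted p under 0.05 with all libraries was Aen, a p53-induced nuclease of apoptosis, with 57.1, 50, 55.3, 42.1, 55.9 and 40.8 CPM in PBS 1 to 6 and 27, 39.4, 32.1, 48.0, 32.9 and 42.4 CPM in GEM 1 to 6. The other GEM libraries, all but GEM 4 and GEM 6, lay under every PBS library, and those 2 lay inside the PBS range. Its log2 fold change of -0.44 ± 0.14 (unadjusted p 0.00349, adjusted p 0.804 by edgeR) was -0.42 ± 0.14 without PBS 5. Cdkn1a, the p21 inhibitor that p53 induces on damage, had a log2 fold change of -0.00 ± 0.32 with 110 to 210 CPM in GEM and 35.9 to 245 CPM in PBS. Gadd45a, another damage-induced gene, was higher at 0.63 ± 0.32, and 0.43 ± 0.28 without PBS 5. Sesn1 and Sesn2, stress-induced sestrins, were lower at -0.80 ± 0.45 and -0.35 ± 0.20, and the value of Sesn1 was -0.15 ± 0.37 without PBS 5, which held 122 CPM. Of 16 apoptosis genes 12 were higher, with a median of 0.08. The one at an unadjusted p under 0.05 was Casp9, the initiator caspase of the mitochondrial pathway, at -1.51 ± 0.61. It rested on 592 CPM in PBS 5 beside 30.0 to 42.7 CPM in the other 5 PBS libraries. Without PBS 5 the sign turned to 0.35 ± 0.23, and GEM 6, the other acinar-rich library, was highest in GEM at 84.1 CPM.

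Genes of hypoxia and glycolysis were higher in GEM for 19 of 20 members, against 46.5% of all genes, with a median of 0.55. Without PBS 5 it was 19 of 20 against 46.8%, with a median of 0.39. One of the 20 reached an unadjusted p under 0.05 (background 1.92% for the higher direction): Pfkfb3, which drives glycolytic flux, with 42.4, 41.5, 35.9, 37.6, 52.9 and 52.0 CPM in PBS 1 to 6 and 78.2, 67.6, 73.9, 44.1, 45.1 and 41.8 CPM in GEM 1 to 6. The 3 GEM libraries from the A1 and A2 columns lay over all of PBS and the other 3 GEM libraries lay inside the PBS range. Its log2 fold change was 0.42 ± 0.20 (adjusted p 0.804 by edgeR). Pfkfb4, its sister enzyme, differed by 0.48 ± 0.24, and P4ha1 and P4ha2, the prolyl hydroxylases of collagen, by 0.62 ± 0.33 and 0.62 ± 0.32. P4ha2 was similar but for GEM 5, which also lay above PBS, with 134, 90.8 and 108 CPM in GEM 1 to 3 and 57.3, 82.2 and 62.7 CPM in GEM 4 to 6, beside 30.1 to 78.1 CPM in PBS. Single libraries moved the count at an unadjusted p under 0.05, with 0 called: it was 8 of 20 without PBS 6, beside 3.36% of all genes, with a median of 0.73, and 5 of 20 without GEM 4, beside 3%, with a median of 0.67.

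The direction of the hypoxia list rested on GEM 1 to 3. GEM 1 was the highest GEM library for 20 of 20 genes and the highest of all 12 for 18. With the A1 to A3 columns left out, 12 of 20 were higher, beside 41.2% of all genes, with a median of 0.11. With PBS 5 left out too, 5 of 20 were higher, beside 47.7% of all genes, with a median of -0.05. With GEM 4 to 6 left out instead, 20 of 20 were higher, beside 44.3% of all genes, with a median of 0.83, and 7 were at an unadjusted p under 0.05, beside 2.78%. With a term for the A1 to A3 columns, 13 of 20 were higher with a median of 0.11, beside a median of -0.01 for all genes. That term with PBS 5 left out gave 3 of 20 higher with a median of -0.08, beside -0.01. The term draws on GEM, IGEL and LIGEL, which hold libraries from both kinds of column. Within GEM 1 to 3 the column numbering and the group cannot be told apart, since no PBS library shares those numbers.

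Type I interferon response genes mirrored this pattern, lower in GEM for 20 of 24 members with a median of -0.42, and -0.26 without PBS 5. Oas2, which senses double-stranded RNA, was the 1 member at an unadjusted p under 0.05, at -1.57 ± 0.72. It measured 705 CPM in PBS 5 and 41.3 to 161 CPM in the other PBS libraries, beside 20.8 to 130 CPM in GEM, and without PBS 5 the difference was -0.43 ± 0.63. Irf9 and Stat2, which form the interferon-activated transcription complex, differed by -0.51 ± 0.27 and -0.58 ± 0.36, and by -0.39 ± 0.27 and -0.23 ± 0.34 without PBS 5. The antiviral GTPase gene Mx2 differed by -0.69 ± 0.46 and -0.24 ± 0.43. Within GEM the highest library was GEM 4 for 24 of 24 genes, and 1 of GEM 1 to 3 held the lowest GEM value for all but 1 gene. Without the A1 to A3 columns, where 58.8% of all genes were lower, the median was -0.06, and with PBS 5 left out as well it was 0.07. A term for those columns turned the median to 0.19 with 20 of 24 higher, beside a median of -0.01 for all genes. That term with PBS 5 left out gave 0.30 with 24 of 24 higher, beside -0.01. In both fits 0 of 24 were higher at an unadjusted p under 0.05. With GEM 4 to 6 left out, where 55.7% of all genes were lower, the median was -0.89 and 7 of 24 genes were at an unadjusted p under 0.05, beside 4.1%. Interferon gamma response genes had 13 of 21 lower, a median of -0.15 and 0 at an unadjusted p under 0.05. Their median was -0.09 without PBS 5, 0.16 with the A1 to A3 columns left out and -0.74 with GEM 4 to 6 left out. With the column term it was 0.25, and 0.31 with PBS 5 left out too.

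The immune cell and antigen presentation lists differed in direction, and no gene of theirs passed the adjusted threshold. Of 15 dendritic cell genes 13 were higher, with a median of 0.43 and 0.28 without PBS 5, and 0 reached an unadjusted p under 0.05. The median was 0.16 with 10 of 15 higher when the A1 to A3 columns were left out, 0.08 with 9 of 15 higher when PBS 5 was left out too, and 0.58 with GEM 4 to 6 left out. Xcr1, the chemokine receptor of cross-presenting dendritic cells, measured 2.15, 1.02, 0.301, 0.279, 0.540 and 0.665 CPM in PBS 1 to 6 and 1.64, 2.24, 2.04, 1.63, 1.52 and 2.57 CPM in GEM 1 to 6. All GEM libraries lay above 5 of the 6 PBS libraries, and PBS 1 lay among them. Its log2 fold change was 1.22 ± 0.60. Ccl22, a chemokine of mature dendritic cells, differed by 0.90 ± 0.44, Wdfy4, which serves cross-presentation, by 0.53 ± 0.31, and Irf8, the transcription factor of this lineage, by 0.33 ± 0.19, and Irf8 by 0.14 ± 0.12 without PBS 5.

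MHC class II genes, which present antigen to CD4 T cells, were higher for 11 of 11 with a median of 0.29, and for 10 of 11 under RLE scaling. Without PBS 5 the count was 10 of 11 and the median 0.59, with 1 at an unadjusted p under 0.05 (background 1.65%). That gene was H2-Ob, a chain of the peptide-exchange regulator, at 1.07 ± 0.50, with 0.653 to 2.67 CPM in GEM and 0.301 to 1.04 CPM in the 5 PBS libraries. The left-out PBS 5 held 2.84 CPM of H2-Ob, above every GEM library. PBS 5 was the highest of the 12 libraries for 6 of the 11 genes. H2-DMb2, a peptide loading chain, differed by 0.62 ± 0.34, H2-Oa by 0.60 ± 0.63 and the master regulator Ciita by 0.45 ± 0.47. PBS 3 was the lowest of all 12 libraries for 10 of the 11 genes, and with PBS 3 left out the median was 0.14. With GEM 4 to 6 left out the direction was lost, at -0.07 with 4 of 11 higher. MHC class I genes, which present antigen to CD8 T cells, had 6 of 14 higher with a median of -0.02, and 2 of 14 with -0.13 without PBS 5. With the A1 to A3 columns left out 13 of 14 were higher, with a median of 0.14.

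Checkpoint genes were higher for 11 of 14, with a median of 0.29. Pdcd1lg2, which encodes the ligand PD-L2, was the 1 at an unadjusted p under 0.05, at 0.99 ± 0.46 (adjusted p 0.804 by edgeR), with 1.18 over 2.22 to 3.44 CPM in GEM and 0.135 over 1.15 to 2.17 CPM in PBS. Without PBS 5, which held the lowest value, the difference was 0.76 ± 0.42. Cd274, which encodes PD-L1, measured 29.2, 22.7, 24.4, 31.5, 23.7 and 24.5 CPM in GEM 1 to 6 and 18.6, 23.5, 14.7, 21.1, 19.4 and 28.6 CPM in PBS 1 to 6. The groups overlapped through PBS 2 and PBS 6, and the log2 fold change was 0.31 ± 0.17, and 0.28 ± 0.18 without PBS 5. Havcr2 and Vsir, the receptors TIM-3 and VISTA, differed by 0.62 ± 0.37 and 0.26 ± 0.17.

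T cell genes were higher for 16 of 19 with a median of 0.15 and 0 at an unadjusted p under 0.05. Cd8a measured 36.3 CPM in PBS 1 and 5.96 to 11.1 CPM in the other 5 PBS libraries, beside 9.30 to 18.2 CPM in GEM, and its log2 fold change was 0.05 ± 0.43. Trac, the constant chain of the T cell receptor, was 11.5 CPM in PBS 1 and 2.08 to 3.72 CPM in the rest of PBS, beside 3.80 to 8.14 CPM in GEM, with a log2 fold change of 0.46 ± 0.40. The costimulatory receptor gene Cd28 differed by 0.48 ± 0.36. In Trac all GEM libraries lay above 5 of the 6 PBS libraries, and PBS 1 lay above all of GEM. The list's median was 0.63 without PBS 1 and 0.72 without PBS 1 and PBS 5, with 0 genes called, and -0.01 with 7 of 19 higher when GEM 4 to 6 were left out. Cytotoxic and natural killer cell genes had 9 of 14 higher with a median of 0.04, and 0.28 without PBS 5. Macrophage genes had 8 of 18 higher with a median of -0.01, which was 6 of 18 with -0.11 without PBS 5 and 14 of 18 with 0.18 without PBS 1. Neutrophil genes had 13 of 14 higher with a median of 0.18, which was 6 of 14 with -0.03 without PBS 5. The efferocytosis receptor gene Mertk at 0.35 ± 0.17, and 0.20 ± 0.13 without PBS 5, was the 1 macrophage gene at an unadjusted p under 0.05. Among neutrophil genes it was Ngp, which rested on 3.83 CPM in GEM 5 where the other 11 libraries held at most 0.270 CPM.

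**Figure D4:**
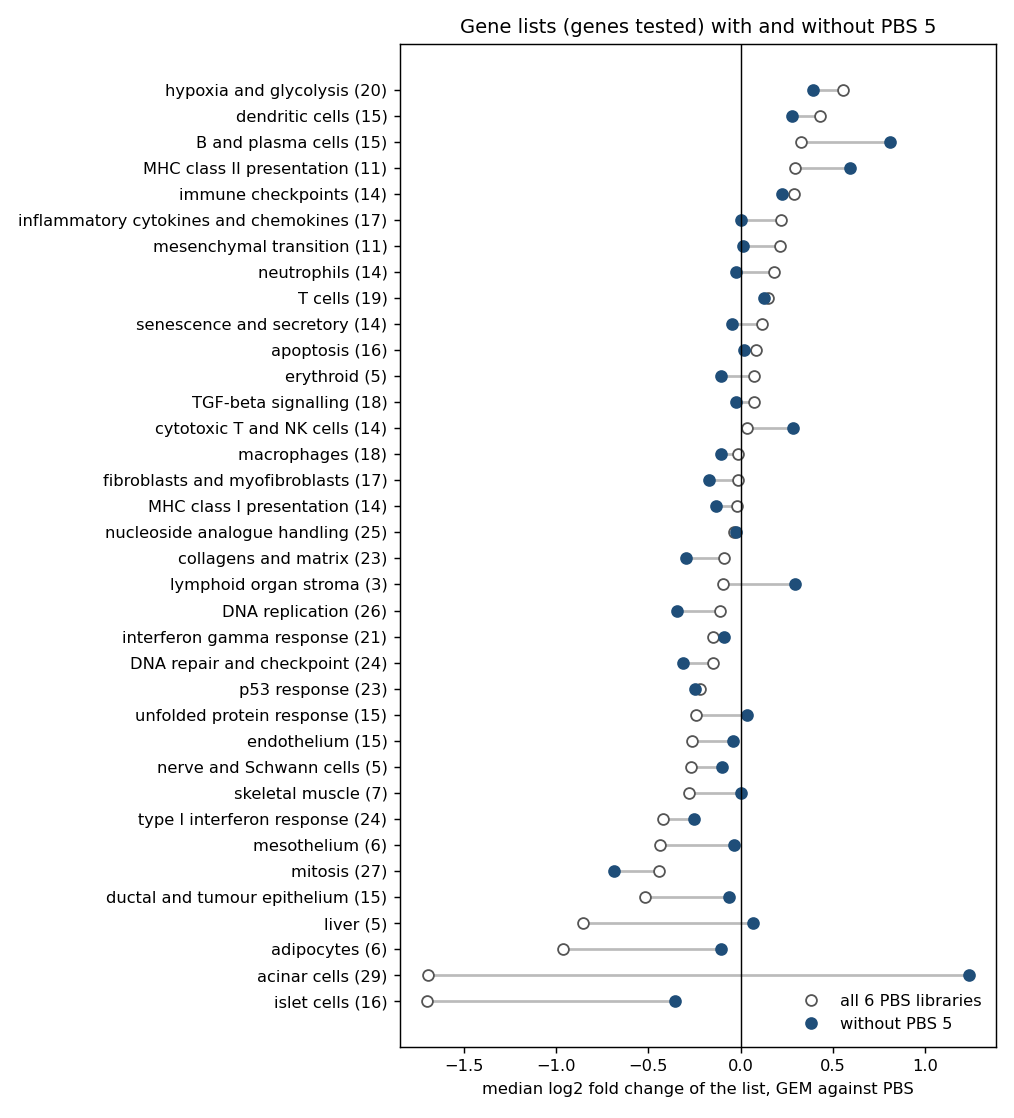
Median log2 fold change of 36 gene lists in GEM against PBS (x axis), one row a list with the number of genes tested, with all PBS libraries (open circles) and without PBS 5 (filled circles). Acinar cells move from -1.69 to 1.24 and islet cells from -1.70 to -0.35, while mitosis moves from -0.44 to -0.69 and hypoxia and glycolysis from 0.55 to 0.39.

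Stromal genes held no common difference. Of 23 collagen and matrix genes 15 were lower with a median of -0.09, and 0 were at an unadjusted p under 0.05. Without PBS 5, 19 of 23 were lower with a median of -0.30, whereas without PBS 1, the library with the highest collagen sum, 21 of 23 were higher with a median of 0.36, and without both the median was 0.21. Col1a1, the main fibrillar collagen chain, measured 17000, 9390, 3840, 6300, 1920 and 2750 CPM in PBS 1 to 6 and 3970, 5850, 4900, 11600, 5040 and 7190 CPM in GEM 1 to 6. PBS spanned more than GEM at both ends, and the log2 fold change was -0.09 ± 0.44. Acta2, the smooth muscle actin of myofibroblasts, differed by 0.11 ± 0.45. Tnc, the matrix glycoprotein tenascin C, was 294 to 390 CPM in GEM and 43.6 to 375 CPM in PBS, at 0.59 ± 0.31, and 0.36 ± 0.22 without PBS 5. Loxl2, a collagen crosslinking enzyme, differed by 0.37 ± 0.27, the proteoglycan gene Dcn by -1.16 ± 0.61 and the matrix gene Fbln1 by -0.44 ± 0.29. Dcn was 270 CPM in PBS 1 and 319 CPM in PBS 5 and at most 71.1 CPM in the other 4, so it was -0.65 ± 0.60 without PBS 5 and 0.35 with PBS 1 left out too.

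Endothelial genes had 13 of 15 lower with a median of -0.26, and -0.04 with 9 of 15 lower without PBS 5. The median turned to 0.31 without PBS 1 and PBS 5 and to 0.22 by voom with all libraries. The 2 at an unadjusted p under 0.05 were Vwf, the clotting factor of vessel walls, at -0.95 ± 0.39, and Sox17, an endothelial transcription factor, at -1.0 ± 0.42. They differed by -0.59 ± 0.36 and -0.32 ± 0.32 without PBS 5. Of 15 genes of the unfolded protein response 10 were lower with a median of -0.24, which was 0.03 without PBS 5. The 2 at an unadjusted p under 0.05 were Chac1, which degrades glutathione, and Herpud1, of the degradation path for misfolded proteins. Herpud1 measured 733 CPM in PBS 5 and 75.6 to 168 CPM in the other PBS libraries, and its log2 fold change went from -0.94 ± 0.40 to -0.02 ± 0.20 without it. Chac1 went from -1.48 ± 0.60 to -0.27 ± 0.44.

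The epithelial and normal pancreas genes varied more between libraries than between groups. Krt19, the duct keratin, was 110, 103, 111, 61.2, 87.5 and 78.0 CPM in GEM 1 to 6 and 126, 36.4, 35.8, 54.8, 19.3 and 168 CPM in PBS 1 to 6, with a log2 fold change of 0.32 ± 0.39. Onecut1, a duct and liver transcription factor, differed by -1.77 ± 0.97, and by -0.65 ± 0.92 without PBS 5. Acinar genes were lower for 29 of 29 with a median of -1.69, and higher for 28 of 29 with a median of 1.24 without PBS 5. With GEM 6 left out as well, the median was -0.64 with 28 lower and 1 higher, and by voom it was -1.55 with all libraries and -1.53 without PBS 5. Cpa1, a digestive carboxypeptidase, spanned 1.26 to 13200 CPM within GEM and 177 to 36000 CPM within PBS, with standard errors of 1.73 and 1.77 on the log2 scale. The acinar share of counts differed by -5.03 percentage points (exact two-sided permutation p 0.623) and by 2.11 points without PBS 5 (exact permutation p 0.745). The mean log2 CPM of the list, 5.66 in GEM and 6.55 in PBS without PBS 5, pointed the other way from the edgeR fit without PBS 5, with GEM 1 at -0.91. Islet genes were lower for 16 of 16 with a median of -1.70, and for 15 of 16 with -0.35 without PBS 5, but the median was 0.24 by voom with all libraries. None of the acinar or islet genes reached an unadjusted p under 0.05 in either edgeR fit.

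The 10 genes with higher values in GEM and the smallest p, by a rule that asked for at least 1 CPM, a log2 fold change of at least 0.5, and 5 of 6 GEM libraries beyond the PBS median, were Adgrb2, Lpin1, Fdps, Gpr132, Bcl6b, Kmo, Prokr2, Dysf, Catip and Fam84a. None passed the adjusted threshold (0.804 for each by edgeR). Lpin1, a phosphatidate phosphatase of lipid synthesis, measured 53.6, 39.7, 52.5, 39.7, 50.7 and 37.8 CPM in GEM 1 to 6 and 37.3, 27.9, 29.5, 34.5, 35.8 and 27.1 CPM in PBS 1 to 6. Its groups did not overlap, though GEM 6 and PBS 1 lay close together, and its log2 fold change was 0.51 ± 0.15, and 0.54 ± 0.16 without PBS 5. Adgrb2, an adhesion receptor, had 1.70 to 2.45 CPM in GEM and 0.887 to 1.65 CPM in PBS, again without overlap, at 0.74 ± 0.21. Kmo, the kynurenine monooxygenase of tryptophan breakdown, had 2.38 to 4.29 CPM in GEM and 0.656 to 2.24 CPM in PBS, at 1.07 ± 0.36 and 0.95 ± 0.36 without PBS 5.

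The others of these 10 overlapped between groups. Gpr132, a receptor of macrophages and lymphocytes, differed by 0.63 ± 0.20, with 11.4 to 17 CPM in GEM and 4.53 to 11.8 CPM in PBS. Fdps, an enzyme of isoprenoid synthesis whose processed copies can share reads, differed by 1.08 ± 0.32. Bcl6b, a transcriptional repressor, differed by 0.56 ± 0.18, Prokr2, a prokineticin receptor, by 1.13 ± 0.39 and Dysf, which mends membranes, by 0.51 ± 0.18. For Dysf, PBS 5 was the low outlier of its group, at 32.6 CPM. Catip and Fam84a differed by 1.17 ± 0.40 and 1.25 ± 0.43, with GEM 1 highest in both, at 1.61 and 12.1 CPM.

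The 10 lower genes were Tnxb, Rpusd3, Rbp7, Entpd4b, Lage3, Hif3a, Mcrip2, Mamdc2, Adgrf1 and Hlf, with the same adjusted p. Tnxb, the matrix protein tenascin X, measured 121, 48.5, 51.1, 75.8, 143 and 55.9 CPM in PBS 1 to 6 and 28.4, 47.7, 39.9, 52.7, 40.0 and 52.0 CPM in GEM 1 to 6. Every GEM library lay under the PBS median and GEM 4 and GEM 6 crossed the low end of PBS. Its log2 fold change was -0.92 ± 0.26, -0.71 ± 0.24 without PBS 5 and -0.43 without PBS 1 as well. Entpd4b, a Golgi nucleotidase with a near-identical neighbouring copy that can take its reads, was at most 0.516 CPM in GEM and 0.455 to 3.94 CPM in PBS, at -2.34 ± 0.78, and is uncertain for that reason. Rpusd3, a pseudouridine synthase of mitochondria, differed by -1.20 ± 0.37 and by -0.84 ± 0.33 without PBS 5. Mamdc2 differed by -2.35 ± 0.82, with 3.48 CPM in PBS 1, 3.58 CPM in PBS 5 and at most 0.803 CPM in the other 10 libraries.

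The rest of the 10 lower genes leaned on PBS 5. Hif3a, a hypoxia factor, was 24.2 CPM there and 0.991 to 4.29 CPM in the other PBS libraries, and -1.80 ± 0.62 became -0.44 ± 0.42 without it. Rbp7, a retinol binding protein, went from -3.13 ± 0.98 to -1.07 ± 0.75, and Hlf, a circadian output factor, from -2.09 ± 0.75 to -0.89 ± 0.62. Adgrf1, an adhesion receptor, went from -2.09 ± 0.74 to -0.87 ± 0.61, and Mcrip2 from -1.02 ± 0.35 to -0.35 ± 0.21. Lage3, of the complex that modifies transfer RNA, went from -0.51 ± 0.17 to -0.31 ± 0.13.

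**Figure D5:**
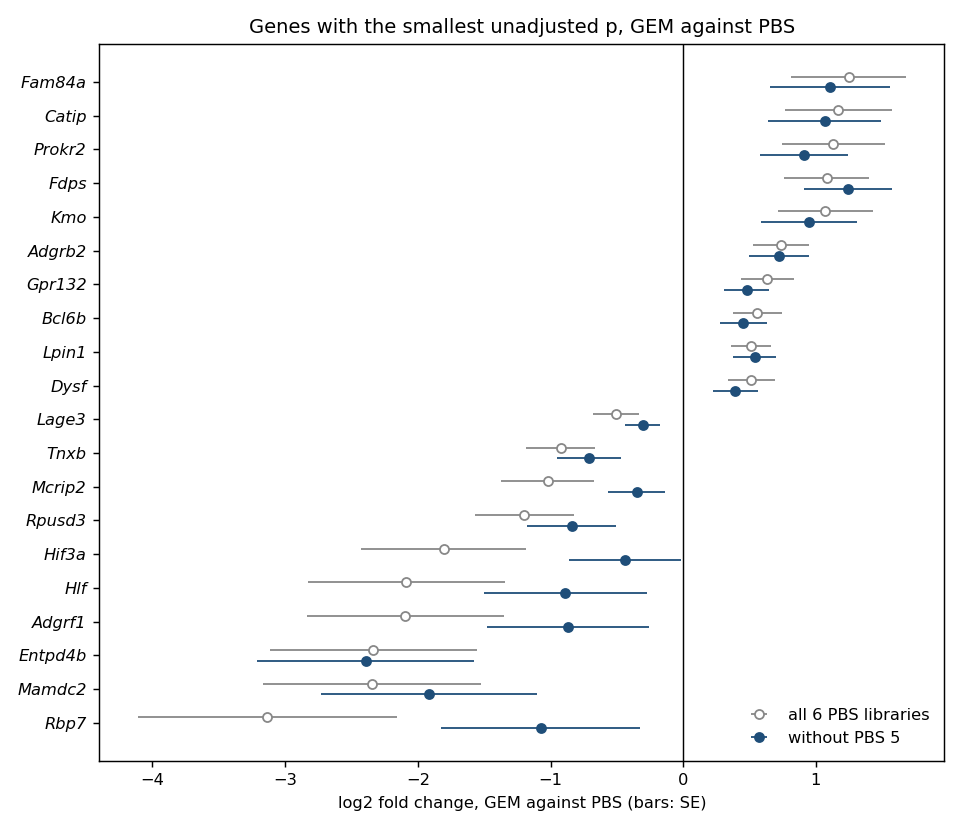
Log2 fold change in GEM against PBS (x axis, bars are SE) of the 10 higher and 10 lower genes with the smallest unadjusted p, one row a gene, with all PBS libraries (open circles) and without PBS 5 (filled circles). The rule that chose these genes asked for the same direction in both fits. Lpin1 lies at 0.51 and 0.54, while Rbp7 moves from -3.13 to -1.07 and Hif3a from -1.80 to -0.44.

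Counted without a model, 18 genes had GEM and PBS libraries that did not overlap (0.0935% of those tested), 14 higher (0.0727%) and 4 lower (0.0208%), and 54 without PBS 5 (0.28%), 30 higher (0.156%) and 24 lower (0.125%). The 4 lower ones were Vegfb, Fam133b, 1500011K16Rik and Gm9929, named here after their values were seen. Vegfb, a growth factor of the vascular endothelial family, was 26.8, 27.4, 27.3, 26.9, 27.1 and 27.7 CPM in PBS 1 to 6 and 25.7, 22.6, 24.5, 25.6, 21.3 and 23.1 CPM in GEM 1 to 6. PBS was tight, PBS 5 included, and GEM lay under it, at -0.19 ± 0.07. Fam133b differed by -0.29 ± 0.10, with 11.8 to 15.4 CPM in GEM and 15.8 to 18.5 CPM in PBS. Among the higher ones, Mtfr1l, a mitochondrial fission regulator, was 52.0 to 53.7 CPM in GEM and 45.7 to 51.2 CPM in PBS, at 0.13 ± 0.06. It was picked out for its narrow spread.

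Among the edgeR fits, genes passed the adjusted threshold only with a further PBS library, PBS 1, left out. With PBS 1 and PBS 5 both left out, a choice made after the data were seen, edgeR called 119 of 19827 genes (0.6%), 3 higher (0.0151%) and 116 lower (0.585%), with a smallest adjusted p of 0.00435. PBS 1 had the highest summed T cell CPM of the 12 libraries, 301 beside 79.8 to 181 in the rest, the highest collagen and matrix sum, 54500 beside 8440 to 37100, and the lowest mean log2 CPM for DNA replication in PBS apart from PBS 5, 5.05. Of 115 of the 116 lower genes tested with all libraries too, PBS 1 lay under every GEM library for 83 and PBS 5 for 107. These calls therefore compare GEM with the 4 other PBS libraries only. Voom without PBS 5 shared 73 of the 119, which is 61.3% of the edgeR calls and 21.8% of the voom calls. Voom with all libraries shared 22 of the 119, and gave PBS 1 a weight of 0.249, the lowest after PBS 5. Its calls are therefore no separate check on leaving out PBS 1. The weights in the voom fit without PBS 5 are not given here.

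Of the 119 genes, 14 belonged to a list. They held 7 of 27 mitosis genes, namely Cdc20, Kif20a, Ube2c, Tpx2, Anln, Bub1 and Bub1b, 4 of 26 replication genes, namely Mcm2, Mcm3, Mcm7 and Cdt1, and Xrcc6, Slc29a1 and Trp53. Cdc20 differed by -1.03 (adjusted p 0.0355 by edgeR), Bub1b of the spindle checkpoint by -0.81 and Tpx2, which organises the spindle, by -0.85. Mcm2, Mcm3 and Mcm7 of the replicative helicase differed by -0.53 each, and the licensing factor Cdt1 by -0.58. Trp53 itself was 240 to 286 CPM in GEM and had a lowest value of 59.9 and a median of 318 CPM in PBS, at -0.39 in this fit and -0.03 ± 0.25 with all libraries.

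Outside the lists, and chosen after values were seen, the smallest p was that of Cks1b, a subunit of cyclin-dependent kinases. It measured 61.5, 133, 173, 149, 18.4 and 154 CPM in PBS 1 to 6 and 86.6, 91.7, 90.3, 104, 87.8 and 96.7 CPM in GEM 1 to 6. GEM lay between the pair of low PBS libraries and the 4 high ones, and the log2 fold change was -0.73 (adjusted p 0.00435 by edgeR) in this fit, -0.55 ± 0.17 without PBS 5 and -0.31 ± 0.30 with all libraries. Slc19a1, the reduced folate carrier, was -0.67 in this fit and -0.41 ± 0.16 with all libraries. Dut, which clears dUTP, was -0.52, the arginine methyltransferase gene Prmt1 -0.38 and Nop56 of ribosomal RNA processing -0.49. Prmt1 in GEM ran only from 180 to 201 CPM, and with all libraries its log2 fold change was -0.01 ± 0.23. The 3 higher genes were Trp53inp2 at 0.57, an autophagy gene, Gcsam at 3.29 and the antisense transcript 9530046B11Rik at 1.20, whose reads cannot be told from those of the opposite strand where counting did not use strand. Gcsam was 0.326 to 0.951 CPM in GEM and at most 0.112 CPM in PBS apart from 0.619 CPM in PBS 1.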

How the data were processed

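Bulk RNA sequencing was done on mouse tumour RNA, extracted with Trizol from tissue frozen on dry ice, per the labels' protocols. The deposited values are raw read counts per gene, 54532 genes in 24 libraries. The submitters' processing notes name HISAT2, featureCounts, Subread and mm10, with no versions, and whether counting used strand was not given in the sources used here. Total counts of the 12 libraries compared were 27.1 M to 35.8 M reads, so counting error is small beside the spread between libraries for all but genes of low CPM.

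From the counts, edgeR 4.0.16 in R 4.3.3 fitted its quasi-likelihood test (robust, TMM factors) to all 24 libraries, after filterByExpr with a count minimum of 10 and a total of 15, which removed 0.0666% of counts, and gave the contrast of GEM with PBS, with p-values adjusted over all genes tested by Benjamini-Hochberg. CPM values are TMM-scaled, and mean log2 CPM uses a prior count of 2. Single values per library were compared with exact two-sided permutation tests. DESeq2 1.42.0 and limma 3.58.1 (voom with sample quality weights) were alternatives, with other scaling, filters, libraries and covariates. The procedure was tested on simulated data.

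Genes were read through 36 lists of 599 genes, 598 of them in the table. Named were the 10 higher and 10 lower genes of smallest p under the rule stated in the report, up to 4 genes of smallest p in a described list, and 13 genes chosen by role. Others are said to be chosen after their values were seen. The members and lists were chosen with earlier results of these data known. The labels name no pairing by replicate number, and the fit with all libraries used none.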

Additional observations from a re-analysis of the deposited data

Results flagged for a closer look

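Of 230 groups of 6 libraries checked, 46 held a library far from the rest of its group, and 24 of the 46 were PBS 5. The cut flags about 1 in 20 groups when values are independent and not chosen. These groups came mostly from named genes, many chosen by their p or after their values were seen. Many of the genes also shared one order of libraries. The 46 therefore cannot be read against that rate. PBS 5 stood apart in its library total, 27.1 M reads, and in its acinar share, 45.4%. It stood apart on the high side for Abcc10 at 134 CPM, Nt5c3 at 36.9, Slc28a3 at 41.6, Sesn1 at 122, Oas2 at 705, Mx2 at 26.2, H2-Ob at 2.84, Chac1 at 71.4, Herpud1 at 733, Casp9 at 592 and Cpa1 at 36000 CPM. The same held for Rbp7 at 7.5 CPM, Lage3 at 33, Hif3a at 24.2, Mcrip2 at 35.1, Adgrf1 at 6.28, Hlf at 14.6 and Gm9929 at 6.96 CPM. On the low side it stood apart for Fanci at 2.23 CPM, Rrm1 at 22, Loxl2 at 43.4 and Dysf at 32.6 CPM.

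GEM 4 was the high library of its group for Kif20a at 116 CPM, Birc5 at 70.8, Mcm2 at 142, Cdt1 at 98.8, Fanci at 24, Rrm1 at 257 and Rrm2 at 231 CPM, all genes of cell division or DNA synthesis and repair. It was also high for Sesn2 at 55.3 CPM, Mx2 at 12, Vwf at 50.9 and Hif3a at 2.67 CPM. GEM 6, with an acinar share of 19.3%, was the high library for Cpa1 at 13200 CPM, Herpud1 at 187, Casp9 at 84.1 and Mcrip2 at 10.3 CPM, 4 genes for which PBS 5 was high too. PBS 1 was high for Cd28 at 3.65 CPM, Trac at 11.5, Cd8a at 36.3 and Gcsam at 0.619 CPM. GEM 5 was high for the neutrophil gene Ngp at 3.83 CPM, and GEM 2 for Rbp7 at 0.437 CPM.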

How the results depend on the processing

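The count of genes past the adjusted threshold was 0 in every edgeR and DESeq2 fit except edgeR without PBS 1 and PBS 5, with 119, while voom called 66, and 335 without PBS 5; DESeq2 gave no adjusted p for 8587 genes without PBS 5. Genes at an unadjusted p under 0.05, 926 with all libraries, numbered 2696 by voom, 465 without a composition factor, 2340 without a filter, 317 on the 12 libraries alone, 237 without the A1 to A3 columns, 430 with a term for them, 337 without them and PBS 5, and 528 with the acinar covariate. Leaving out 1 library gave 472 to 1670. Combinations added after the data were seen gave 2289 without PBS 1 and PBS 5, 1559 without PBS 5 and GEM 4, 2833 by voom without PBS 5, and 1407 without GEM 4 to 6. Genes whose groups did not overlap, 18, ranged from 22 to 65 when 1 library was left out, which loosens that count by construction.

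Mitosis genes lower at an unadjusted p under 0.05 went from 0 to 27 by voom and without PBS 5, 14 without the A1 to A3 columns and PBS 5, 2 without GEM 4 and 2 without GEM 4 to 6. With PBS 5 left out they numbered 27 by DESeq2, by voom, with the acinar covariate and without a composition factor, 21 with the column term, 24 without PBS 2 and 25 without GEM 1. The library total differed by 0.1556 M reads with all libraries, and by 0.6037 without PBS 2, -1.149 without PBS 5, -0.2148 without GEM 2 and -0.09309 without GEM 3, and the acinar share, -5.03 points with all libraries, by -7.957 without GEM 6 and 2.106 without PBS 5. The cause of these shifts was not tested.

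The labels name no pairing of libraries by replicate number. Same-numbered GEM and PBS libraries had correlations from -0.562 to 0.131, which gave no sign of a pairing but cannot exclude one. With the replicate block 139 genes were at an unadjusted p under 0.05. Of the named genes under all alternatives, 4240 values kept their direction and side of the threshold, 218 turned sign without a call and 58 passed it. Depth limits genes near 1 CPM most.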
